A study of Arabidopsis thaliana with 3 samples.

Results

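Shared SPL10 peaks in the DNA around the centromeres, away from protein-coding genes, numbered 1587 of 16697 shared nuclear peaks, or 9.5%. A peak of replicate 1 was taken as shared where it and a replicate 2 peak each covered at least 50% of the other. The mean of both summits had to lie in 1 span per chromosome and more than 2000 bp from every protein-coding gene. The spans were 13 to 17 Mb of chromosome 1, 2 to 5.5 Mb of chromosome 2 without 3.2 to 3.6 Mb, 11.5 to 16 Mb of chromosome 3, 2 to 5.5 Mb of chromosome 4 and 10 to 14 Mb of chromosome 5. They held 277, 297, 446, 273 and 294 of the peaks on chromosomes 1, 2, 3, 4 and 5. The comparison set was 1153 shared peaks of the chromosome arms under the same distance rule, called the distal arm peaks here. The choice used position only, so fold and width were free to differ. Annotated elements were less free, because the rule removed coding genes and their flanks from both sets.

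The study mapped SPL10 binding by DAP-seq in leaf of Arabidopsis thaliana Col-0, with 2 precipitated samples (IP1 and IP2) and 1 input sample. All were Col-0 without a further treatment in the labels, whose protocol gives fixation in 1% formaldehyde for 10 min and shearing by sonication. Each precipitation had its own peak list, of 21500 and 21363 nuclear peaks, with a median of 47 and 44 tags at the summit. Of the 19553456 read pairs in the input's alignment log, 17.55% had more than 1 possible place. The labels do not say whether the precipitations came from separate plants, so they were counted as 1 sample and each value is given for both. Leaf identity could not be checked, because genomic DNA carries no expressed markers.

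SPL10 belongs to the SQUAMOSA promoter binding protein-like family, whose SBP domain holds zinc ions and contacts DNA. Part of the family is repressed by the microRNA miR156. DAP-seq presents genomic DNA to a transcription factor and sequences what is retained, and how the SPL10 protein was made is not stated in the labels. The labels also give fixation in formaldehyde, so whether SPL10 met purified DNA or chromatin here is not settled and was not tested. Pericentromeric DNA of Arabidopsis is rich in transposons, poor in genes and heavily methylated in the plant, and the RefSeq annotation enters many transposon genes as pseudogenes. The table used names no transposon families, so elements are given here by gene type and locus name.

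The DNA around the peaks was poor in coding genes and rich in pseudogenes. The nearest annotated gene was a pseudogene for 1486 pericentromeric peaks, or 93.64%, against 528 distal arm peaks, or 45.79%. Pseudogenes covered 45.77% of the pericentromeric bases over 2000 bp from coding genes, against 28.07% of such bases in the arms. The median distance to a coding gene was 10.56 kb for the pericentromeric peaks, with a highest value of 243.41 kb. Distal arm peaks had a median distance of 3.25 kb and a highest value of 33.59 kb. Nearest gene types and distances were not computed over all such bases, so they describe the DNA of each set as much as its peaks.

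The strongest SPL10 peaks of the genome included many pericentromeric ones. Ranked by the mean log2 fold of both replicates, 6 of the first 10 shared peaks, 9 of the first 20 and 12 of the first 50 were pericentromeric. Distal arm peaks, 6.91% of all shared peaks, made up 1, 1 and 5 of the same ranks. Arm peaks in or near coding genes, 79.27% of all, made up 3, 10 and 31. The 12 pericentromeric peaks carried 315 to 390 tags, and the highest number in either list was 396. Their top ranks thus rest on a narrow part of the scale. Further down, the pericentromeric share came close to its share of all shared peaks: 16% of the first 100, 11% of the first 500 and 9.54% of the first 5000, beside 9.5% of all.

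Fold here is the authors' value at the summit, the scaled precipitated tags over the local background with 1 added to each. The strongest peak of all, on chromosome 5 at 12972536 to 12974822 (TAIR10, replicate 1), stood 606 bp from the pseudogene AT5G34810. Its fold was 27.12 in replicate 1 and 29.51 in replicate 2. It was also the widest pericentromeric peak, at 2287 and 2293 bp. The second lay on chromosome 1 at 16297406 to 16297982, 276 bp from AT1G43220, with folds of 26.83 and 28.45. The third lay inside AT5G29408, on chromosome 5 at 11171793 to 11172557, with 26.97 and 27.92. These summits carried 369 to 390 tags, where the highest number in either list was 396, so a difference between the libraries could be hidden there.

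The strongest peak of chromosome 3, at 14771028 to 14772665 and 580 bp from AT3G42690, had folds of 25.98 and 27.7. That of chromosome 4, at 4341048 to 4341574 and 244 bp from AT4G07520, had 25.77 and 27.54. On chromosome 2 the strongest lay inside AT2G13160, at 5443132 to 5443702, with 25.06 and 26.79. Every span thus held at least 1 peak above 25-fold in both replicates, each inside a pseudogene or within 1 kb of one.

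The remaining peaks among the 12 strongest lay near AT1G35760 (26.34 and 28.37), AT1G43205 (26.16 and 27.74), AT5G34820 (23.72 and 24.68) and AT3G42710 (23.72 and 23.85), and inside AT4G08602 (24.99 and 26.11) and AT3G33575 (23.38 and 23.2). Of the 12, 4 summits were inside a pseudogene, 7 within 1 kb outside one, and the AT1G35760 peak 3904 bp away. Replicate 2 gave the higher fold at 11 of the 12, the exception being AT3G33575. Tags were scaled by depth, 1.26 and 1.18 times the background library in replicates 1 and 2. Equal tags at an equal background therefore give the higher fold in replicate 2. The AT3G42690 summit, for example, had 366 tags in both. The 12 summits carried 315 to 390 tags, near that highest number. Their order and the likeness of the replicates thus rest on a narrow part of the scale. The local background was at the genome-wide level in both replicates for 10 of the 12.

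**Figure D1:**
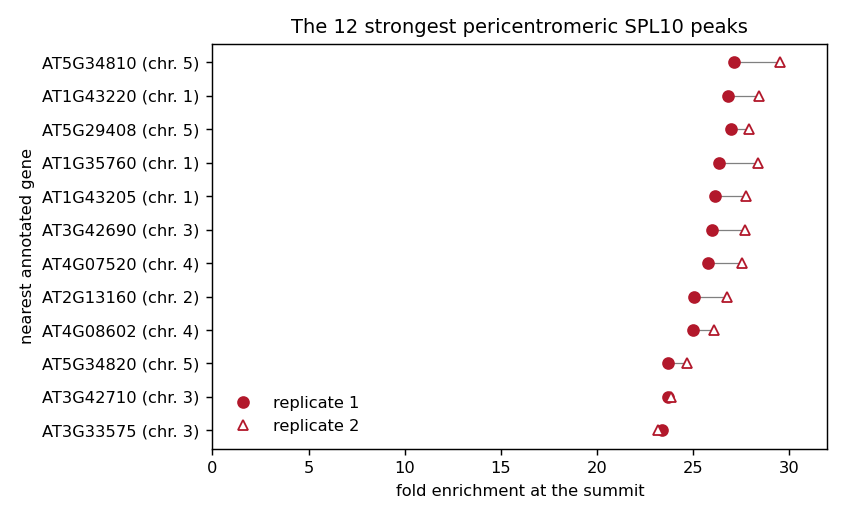
Fold enrichment at the summit (horizontal axis) of the 12 strongest pericentromeric SPL10 peaks, each named by its nearest annotated gene. Filled circles are replicate 1 and open triangles replicate 2. All lie between 23.2 and 29.51, with replicate 2 to the right at 11 of the 12. Equal tags at an equal background give the higher fold in replicate 2.

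A fold of at least 10 in both replicates was reached by 149 of the 1587 pericentromeric peaks, or 9.39% (exact binomial interval at the 95% level 8.0% to 10.93%, which covers counting error only). Among distal arm peaks it was 132 of 1153, or 11.45% (9.67% to 13.43%), and among all shared peaks 8.88%. A fold of at least 20 in both was reached by 17 pericentromeric peaks, or 1.07% (0.63% to 1.71%), by 9 distal arm peaks, or 0.78% (0.36% to 1.48%), and by 0.593% of all shared peaks. The intervals treat peaks as independent, which peaks of the same libraries are not, so they give no test between the sets.

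Typical pericentromeric peaks were slightly weaker than distal arm peaks. Their median fold was 3.77 in replicate 1 and 3.68 in replicate 2, with quartiles of 2.68 and 6.31, and 2.71 and 6.27. Distal arm peaks had medians of 4.26 and 4.24, with quartiles of 2.85 and 7.23, and 2.88 and 7.18. All shared peaks had medians of 3.78 and 3.79, so the pericentromeric peaks lay at the level of the genome and the distal arm peaks above it. Pericentromeric peaks within 2000 bp of coding genes or inside them had 3.6 in both replicates.

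The median was lower than in the distal arms on each chromosome and in each replicate, but by unequal amounts. On the log2 scale the difference was -0.28 and -0.22 on chromosome 1, -0.23 and -0.3 on chromosome 3, and -0.28 and -0.25 on chromosome 4, in replicates 1 and 2. On chromosome 2 it was -0.04 and -0.18, and on chromosome 5 -0.05 and -0.01, so that chromosome 5 lay near 0 and chromosome 2 differed between replicates. Peaks of 1 library are not replicates of a condition, so these differences have no test. Over all chromosomes and both replicates the log2 ratio was -0.18. It was -0.09 with only peaks of −log10 q of at least 10 and -0.03 with the 5000 peaks of highest fold. These limits remove weak peaks from both sets, and their part in the change was not tested. With both sets limited to 2 to 10 kb from coding genes, a limit set after the values were seen, the log2 ratio was -0.1.

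**Figure D2:**
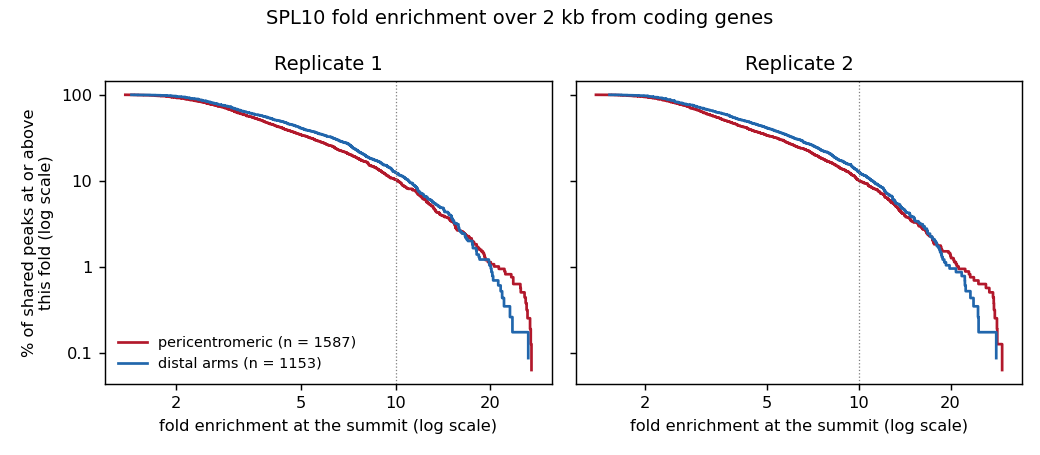
Share of shared peaks at or above each fold (both axes logarithmic) for 1587 pericentromeric peaks (red) and 1153 distal arm peaks (blue), in replicate 1 (left) and replicate 2 (right). The dotted line marks 10-fold. The red line runs below the blue one through the middle of the range, and the lines cross between 10-fold and 20-fold.

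**Figure D3:**
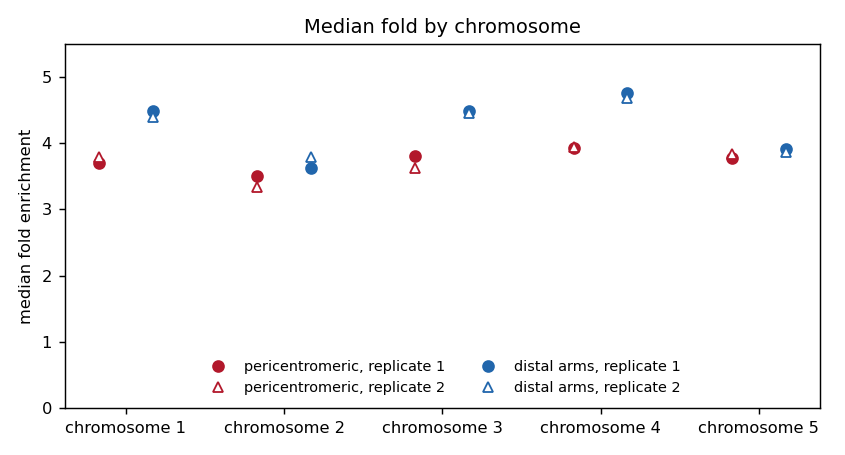
Median fold enrichment (vertical axis, starting at 0) of pericentromeric peaks (red, left) and distal arm peaks (blue, right) on each of 5 chromosomes. Filled circles are replicate 1 and open triangles replicate 2. The red medians lie between 3.34 and 3.94, and the sets come closest on chromosomes 2 and 5.

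The local background was raised around more of the pericentromeric peaks. It was recovered for each summit from the deposited fold and −log10 p. It was more than 1% above the genome-wide level of 10.19 tags at 51.92% and 51.42% of pericentromeric summits, against 32% and 31.4% of distal arm summits. Over all shared peaks the shares were 40.84% and 40.96%, so the distal arms lay below the genome. Levels over 1.5 times occurred at 7.56% and 7.37%, against 3.21% and 3.64% in the distal arms and 3.76% and 3.89% of all shared peaks. The highest were 9.52 and 8.88 times the genome-wide level, against 3.53 and 3.43 times in the distal arms. A raised background lowers the fold for the same number of tags.

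Medians were also taken by class of background, and the part of the background in the lower pericentromeric median was not tested. At the 718 pericentromeric summits with the genome-wide level in both replicates the median fold was 3.91 and 3.86, against 4.41 and 4.31 at 749 distal arm summits. At the 771 with a raised background in both it was 3.67 and 3.58, against 4.01 and 4.05 at 327 distal arm summits. With fold recomputed on the genome-wide background, an alternative added after the values were seen, the medians were 4.12 and 4.09, against 4.55 and 4.54.

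Pericentromeric peaks were about as wide as distal arm peaks. The median width was 324 bp in replicate 1 and 321 bp in replicate 2, against 335 and 336 bp. Width rose with fold: over the 1587 peaks Spearman's rho was 0.629 and 0.639, a description of peaks that share a library. Within classes of mean fold, widths were 251.5 and 256.5 bp under 3-fold, against 267.5 and 260.5 bp in the distal arms. At 3-fold to 5-fold they were 305 and 302 bp, against 309 and 310 bp.

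In higher classes of fold the width difference had no steady sign. At 5-fold to 10-fold, widths were 360 and 360 bp, against 360.5 and 360 bp, and at 10-fold to 20-fold 455 and 446 bp, against 438 and 430 bp. From 20-fold upwards, with only 17 pericentromeric and 10 distal arm peaks, they were 593 and 622 bp, against 638.5 and 623.5 bp. A width of at least 1000 bp in both replicates occurred at 16 of 1587 pericentromeric and 10 of 1153 distal arm peaks. Taken in replicates 1 and 2 singly, such widths occurred at 1.13% and 1.2% of pericentromeric peaks and 1.21% and 0.87% of distal arm peaks. Among all shared peaks the share was 0.56% in each replicate. By the mean width of both replicates, the widest after the AT5G34810 peak were one of 1730 and 2209 bp on chromosome 3 and one of 1854 and 1830 bp on chromosome 1. The chromosome 3 peak, at 13854168 to 13855897, had folds of 6.31 and 6.47 and stood 165870 bp from any coding gene and 12354 bp from the nearest pseudogene, AT3G33103. The chromosome 1 peak, at 16842665 to 16844518 and 3820 bp from AT1G44382, had folds of 19.69 and 20.08.

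Strong and weak pericentromeric peaks differed in where they lay relative to annotated elements. Inside pseudogenes lay 793 of the 1587 summits, or 49.97% (47.48% to 52.46%), where pseudogenes covered 45.77% of the bases. A further 436, or 27.47% (25.29% to 29.74%), lay within 1 kb outside a pseudogene, on 24.72% of the bases. Farther off lay 345, or 21.74% (19.73% to 23.85%), on 28.81% of the bases, and 13 lay inside other noncoding genes. Among summits at the genome-wide background in both replicates the share inside pseudogenes was 39.69%, and among the 5000 peaks of highest fold per replicate 40.23%, both below the share of bases. Over all 1587 peaks, summits were spread over pseudogenes and their surroundings nearly as the bases were, at 125.22 and 127.49 per Mb, and were sparser farther off, at 86.56 per Mb.

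The peaks of at least 10-fold were spread differently. Of the 149, 73 or 48.99% (40.72% to 57.3%) lay within 1 kb outside a pseudogene, 48 or 32.21% (24.8% to 40.35%) inside one, and 27 or 18.12% (12.29% to 25.26%) farther off. That gave 21.35 strong peaks per Mb in the zone within 1 kb, against 7.58 per Mb inside pseudogenes and 6.77 per Mb farther off. Put the other way, 16.74% of the peaks in that zone were strong, against 6.05% of those inside pseudogenes and 8.88% of all shared peaks. The median fold in the zone was 4.23 and 4.19, against 3.66 and 3.56 inside pseudogenes.

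Distances to pseudogenes differed in the same way. Among summits outside pseudogenes and other noncoding genes, the 100 strong ones had a median distance of 422.25 bp to the nearest pseudogene, and the 681 weaker ones 860.5 bp. The table holds no strand, so the zone was not divided into the sides before and after an element.

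The distal arms, with fewer pseudogenes, also had their highest share of strong peaks just outside pseudogenes. There, 17.68% of the peaks within 1 kb outside a pseudogene were strong, against 9.86% inside one and 10.49% farther off. Strong peaks per Mb numbered 29.73 in that zone, 16.67 farther off and 13.73 inside, the last 2 in the other order than in the spans. Of the 132 strong distal arm peaks, 21.97% (15.23% to 30%) lay in that zone, on 12.96% of the bases. Farther off lay 53.03%, on 55.8% of the bases. The pattern near pseudogenes was therefore not limited to the pericentromeric spans. What differed was how much of the strong set it held, 48.99% in the spans against 21.97% in the arms, while the zone covered 24.72% and 12.96% of the bases.

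**Figure D4:**
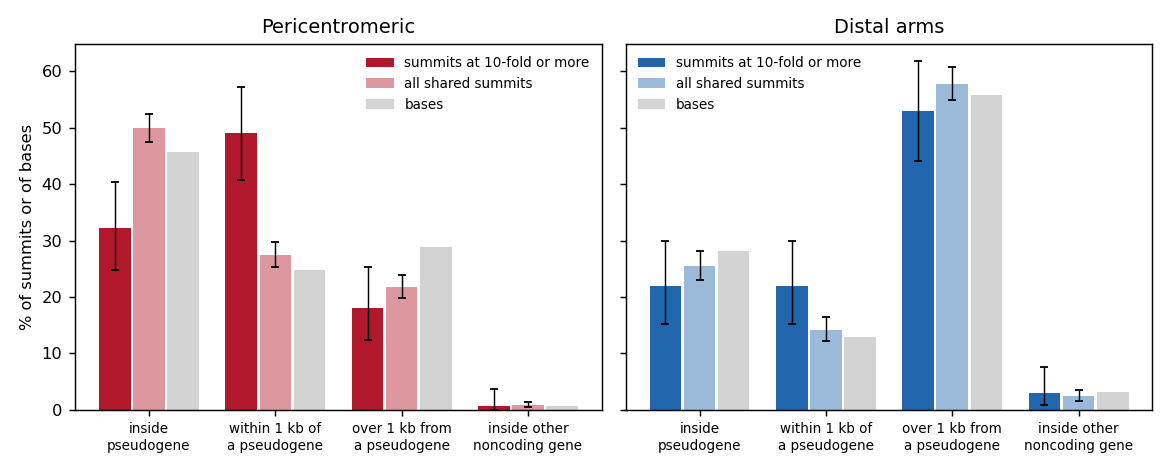
Share of summits or bases (vertical axis, %) by place, for pericentromeric DNA (left, red) and distal arms (right, blue). Dark bars are summits of at least 10-fold in both replicates, light bars all shared summits and grey bars all bases over 2000 bp from coding genes, and the black lines are exact 95% binomial intervals for counting error. Near pseudogenes in pericentromeric DNA the dark bar reaches 48.99% where the grey bar is at 24.72%.

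Most single pseudogenes held no peak. Of 2410 pseudogenes in the spans that lay over 2000 bp from coding genes, 551 or 22.86% had at least 1 pericentromeric summit inside, and 974 or 40.41% had one inside or within 1 kb. At least 1 peak of 10-fold or more stood inside or within 1 kb of 143, or 5.93%. The density of summits inside was alike for short and long pseudogenes, at 146.44 per Mb under 1 kb, 124.54 per Mb at 1 to 3 kb and 123.14 per Mb at 3 kb or more. The most summits in 1 pseudogene were 11, in AT5G32690, whose annotated length is 58519 bp, and none of them reached 10-fold in both replicates. That gene was singled out after its values were seen.

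The densest group of peaks lay at AT5G28487 on chromosome 5, where 7 summits fell within 5 kb, between 10441335 and 10446009. The first, 172 bp outside the pseudogene, had folds of 10.63 and 11.26. The others were inside it. The third reached 10.93 and 9.6, while the second had 2.93 and 2.15. The last 4 had folds of 3.6 and 3.86, 3.4 and 2.87, 3.79 and 3.49, and 3.84 and 4.01. Among the summits inside the element, the third was thus the highest in both libraries, with 9.6 in replicate 2, below 10-fold.

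Strong peaks had a strong neighbour nearly as often in the distal arms as in pericentromeric DNA, a feature examined after the values were seen. Of the 149 pericentromeric peaks of at least 10-fold, 36 or 24.16% stood within 3 kb of another, against 27 of 132, or 20.45%, in the distal arms. The share over all strong shared peaks was not computed. The median spacing of the 21 pericentromeric pairs was 2061 bp, against 1472 bp for 17 pairs in the arms. On chromosome 1, the AT1G43205 peak stood 1987 bp from a peak near AT1G43210 with folds of 19.19 and 19.7. Further along the same chromosome, the AT1G43220 peak stood 1989 bp from a peak near AT1G43240 with folds of 18.98 and 19.93. Both pairs therefore combined a peak of over 26-fold with one between 18.98-fold and 19.93-fold at nearly the same spacing, and whether the elements are copies of each other was not tested. On chromosome 4 the AT4G07520 peak, at 25.77 and 27.54, had a neighbour of 18.77 and 18.64 near AT4G07522, 2061 bp away. Spacings of 1900 to 2200 bp occurred in 6 pericentromeric pairs and 1 pair in the arms. That window was not planned beforehand and holds the spacings named above, so these counts are no test of a difference.

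Fewer peaks were found per length of DNA around the centromeres. Pericentromeric DNA over 2000 bp from coding genes held 114.69 shared peaks per Mb over 13.84 Mb, against 153.23 per Mb over 7.52 Mb of such DNA in the arms, a ratio of 0.75. Strong peaks numbered 10.77 per Mb, against 17.54 per Mb, a ratio of 0.61. No allowance could be made for DNA where reads cannot be placed, and its part in these ratios was not tested.

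Density and strength were lowest at the middle of the spans. Within 0.5 Mb of the middle there were 95.42 peaks per Mb, of which 5.75% were strong. From 0.5 to 1 Mb off there were 99.7 per Mb with 10.35% strong, from 1 to 1.5 Mb 134.06 per Mb with 10.96% strong, and from 1.5 Mb outwards 146.73 per Mb with 10.48% strong. Strong peaks thus stood at 5.49 per Mb in the innermost zone and 15.38 per Mb in the outermost. The share of summits with a raised background in replicate 1 ran the other way, at 64.5%, 50.25%, 48.4% and 43.91% from the innermost zone outwards.

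The chromosomes differed in their density at the middle of the span. In the 0.5 Mb bin before the middle of the chromosome 1 span only 7 peaks were found, or 15.25 per Mb, and no summit lay between 14598616 and 14918724, a gap of 320.11 kb. On chromosome 5 the bin before the middle had 46.72 per Mb, with a gap of 183.05 kb. On chromosome 3 the middle bin had 165.46 per Mb, the highest of that span, but none of its 81 peaks reached 10-fold in both replicates. Taken as 3 over the number of peaks, about the 95% level, this allows a share of up to 3.7%. That limit treats peaks as independent, which peaks of the same libraries are not. Of the 81, 74.07% had a raised background in replicate 1. The longest gap on chromosome 3 was 65.56 kb and on chromosome 4 173.04 kb, while that of chromosome 2, 445.16 kb, included the stretch the rule leaves out. The median spacing between neighbouring summits was 5.36 to 6.98 kb on all 5 chromosomes.

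**Figure D5:**
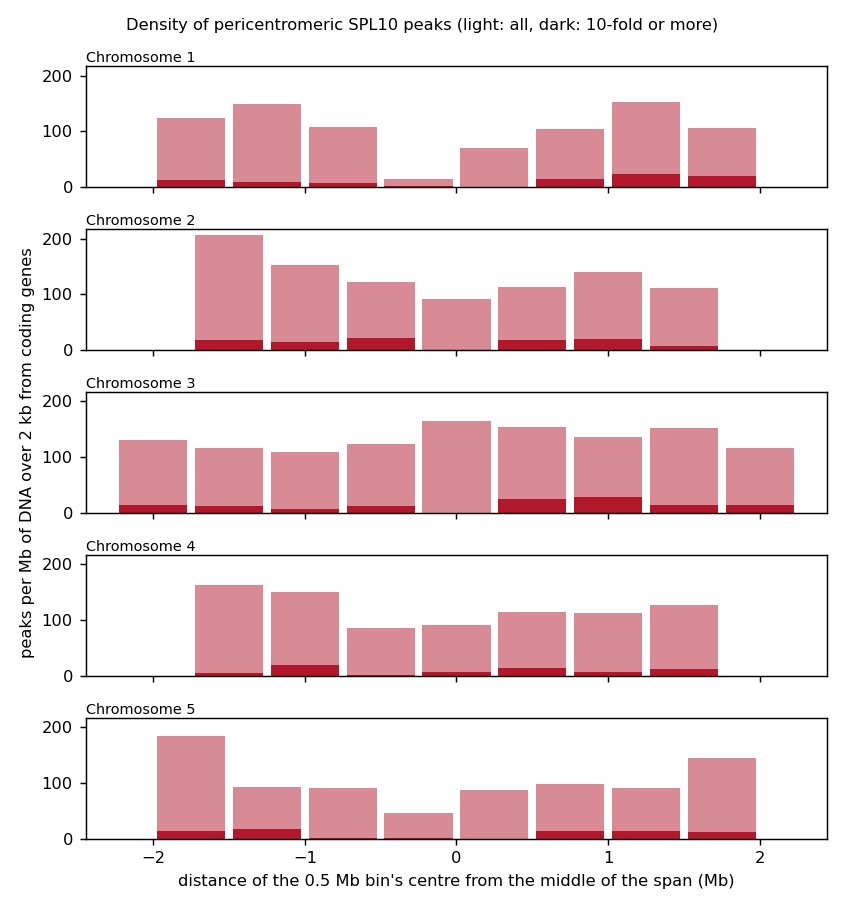
Pericentromeric peaks per Mb of DNA over 2000 bp from coding genes (vertical axis), in bins of 0.5 Mb placed by distance from the middle of each span (horizontal axis), 1 panel per chromosome. Light bars are all peaks and dark bars those of at least 10-fold in both replicates. The bin before the middle falls to 15.25 per Mb on chromosome 1, and the middle bin of chromosome 3 has no dark part.

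Pericentromeric peaks were weaker beyond 20 kb from coding genes, with little difference among the nearer classes. Pericentromeric peaks 2 to 5 kb from a coding gene had median folds of 3.84 and 3.75, against 4.19 and 4.16 in the distal arms. At 5 to 10 kb the medians were 3.91 and 3.86, against 4.07 and 4.11. At 10 to 20 kb they were 3.74 and 3.77, against 5.16 and 5.04 for only 48 distal arm peaks. Beyond 20 kb, where 472 pericentromeric and 12 distal arm peaks lay, the medians were 3.49 and 3.47, against 3.49 and 3.26. The share of strong pericentromeric peaks was 10.26% at 2 to 5 kb, 11.88% at 5 to 10 kb, 11.67% at 10 to 20 kb and 4.87% beyond 20 kb. In the distal arms it was 10.54%, 13.93%, 18.75% and 8.33% in the same classes.

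Pericentromeric peaks were found again in the other replicate about as often as peaks elsewhere. By each list's own summits, 78.11% of such peaks in replicate 1 and 78.1% in replicate 2 were shared, against 79.46% and 80.24% in the distal arms. The shares of all nuclear peaks were 77.7% and 78.2%. Fold correlated between replicates over the 1587 peaks with Pearson's r of 0.965 on the log2 scale, a description of peaks of the same libraries. The median absolute log2 difference was 0.14, and the summits of both replicates lay a median of 13 bp apart.

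An exact binomial test of tags, two-sided, with Benjamini-Hochberg adjustment over all 16697 shared peaks, called 1 peak, or 0.00599%. That peak was pericentromeric, inside AT3G33178 on chromosome 3 at 14006796 to 14008070. It carried 152 tags in replicate 1 and 59 in replicate 2 (exact binomial test, adjusted p = 2.11e-05), with folds of 6.07 and 4.38. The summits of the 2 replicates stood 872 bp apart within peaks of 1275 and 1041 bp, so different positions were compared. At an unadjusted p under 0.05, 12 pericentromeric peaks, or 0.76%, differed, against 1.29% of all shared peaks. If only counting error separated the replicates, a share of up to about 0.05 would be reached. Both shares lay below that, so the tags were more alike than the test assumes, for reasons not tested. The few calls are therefore no measure of reproducibility.

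The largest differences in fold between replicates were inside pseudogenes of chromosome 4. The AT4G06640 peak, at 3789120 to 3789353, had folds of 1.95 and 3.63 on similar tags of 48 and 55, with a local background of 1.86 and 1.18 times the genome-wide level. The AT4G08054 peak, at 4918618 to 4918933, had 3.56 and 2.12. The AT4G06569 peak, at 3514584 to 3514917, had 5.63 and 3.44. None of these 3 passed the test of tags after adjustment.

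The weakest pericentromeric peaks, named after their values were seen, were inside AT3G30814 with folds of 1.49 and 1.4, and 2324 bp from AT2G10310 with 1.44 and 1.55. A q above 0.05 was listed for 5.04% and 2.77% of the pericentromeric peaks, against 2.78% and 1.47% of distal arm peaks. Among all shared peaks it was 3.73% and 2.67%, so in replicate 2 the pericentromeric share was near that of the genome.

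Peaks on either side of the lines that defined the set had no common strength. Just inside the 2000 bp line stood a peak 2018 bp from a coding gene, near the long noncoding RNA gene AT1G07273, with 8.73 and 7.42, and one 2022 bp off, inside AT1G36590, with 6.64 and 7.55. Just outside it stood one 1997 bp off, inside AT5G28232, with 6.46 and 6.65, and one 1986 bp off, near AT1G35910, with 2.35 and 3.03. Nearest to a span end, the peak inside AT2G05450 within the span had 8.72 and 9.03, and the one near AT5G27965 outside it had 2.59 and 3.04.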

How the data were processed

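Peaks of the 2 precipitated samples were deposited as 1 list each. The authors' fold is a ratio at the summit, beside −log10 p and −log10 q as deposited. The deposited score was 10 times the −log10 q to within 1. Positions, and an alignment log for the input, were used as deposited. Peak names give MACS as the caller. Neither labels nor lists state its version, its threshold or the control it was given. Trimming with cutadapt and the TAIR10 build come from the submitters' processing notes.

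Summit tags and local background were recovered from fold and −log10 p. Whole numbers, within 0.02 tags, resulted for 99.9% of peaks. The precipitated libraries were 1.26 and 1.18 times as deep as the background library. The recovery and the binomial test were tested on simulated data. For the binomial test, the simulated tags of the replicates were independent counts without an upper limit, unlike the deposited lists. Genes came from a RefSeq table of TAIR10.1 (37899 nuclear genes, 4843 of them pseudogenes), used for names and distances only. No genome sequence was used, so planned sequences and motif counts are not given. Members and lists were chosen with earlier results of these data known. Named members were the 12 strongest, the strongest per chromosome, the 3 widest, the 3 differing most between replicates, the strongest 2 outside elements, the densest 5 kb, and those nearest the set's limits. Alternatives changed the overlap, peak threshold, flanks, spans, background, tag limit and replicates. Tools were Python 3.11.15, numpy 2.4.6, pandas 2.3.3, scipy 1.17.1 and statsmodels 0.14.6.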

Additional observations from a re-analysis of the deposited data

Results flagged for a closer look

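The stretch of chromosome 2 between 3.2 and 3.6 Mb, which the definition of the set leaves out, held 61 shared peaks, 14 of them over 2000 bp from coding genes. Their median fold was 2.07 and 2.13, on 286 and 270 tags and a local background of 11.28 times the genome-wide level in both replicates. They drew attention as signal in data outside the comparisons above.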

How the results depend on the processing

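Differences between the sets were recomputed for median fold, median width and density only, and no alternative run turned their direction. For the number of peaks, 10 of 13 alternatives left it within 1.5 times 1587. The peaks numbered 799 with −log10 q of at least 10, 435 among the 5000 highest folds per replicate and 718 at the genome-wide background in both replicates. Under these 3 settings, in that order, the median fold (3.68 over both replicates) was 6.22, 8.64 and 3.89. The log2 ratio of median fold (-0.18) was -0.09, -0.03 and -0.14, and the share at 10-fold (9.39%) was 18.65%, 34.25% and 11.14%. The median width (322.5 bp) was 361.5, 400.5 and 325 bp, with a log2 width ratio (-0.05) of -0.03 in each. The density ratio (0.75) was 0.66, 0.62 and 0.52. The share inside pseudogenes (49.97%) was 40.23% with the highest folds and 39.69% at the genome-wide background. With any overlap of 1 bp the median fold was 3.57, its log2 ratio -0.21 and the width 325 bp. With 80% overlap the fold was 4.1 and its log2 ratio -0.21. With flanks of 1000 bp the log2 fold ratio was -0.16 and the density ratio 0.69. With flanks of 5000 bp the log2 ratios were -0.25 for fold and -0.09 for width. At summits with at most 198 tags, fold was 3.53 and width 316.5 bp, and the share at 10-fold was not run there. Single replicates gave fold 3.11 to 3.13, log2 fold ratio -0.2 to -0.15, share at 10-fold 7.97% to 8.12%, width 306 to 308 bp and log2 width ratio -0.08 to -0.07. Alternatives added after the values were seen gave a fold of 4.08, a log2 ratio of -0.16 and a share of 12.35% on the genome-wide background, and a log2 fold ratio of -0.1 at 2 to 10 kb from coding genes. Thresholds remove weak peaks by construction, and the cause of the shifts was not tested. Neither precision between independent plants nor unplaceable DNA could be measured, and the highest tag number limits the order of the strongest peaks.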
